A study of Mus musculus with 2 samples.

Results

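Naive T cells, labelled Tn in the deposited annotation, were 243 of the 4441 cells recovered from 6 transplanted mouse hearts. They were taken by that label alone, so they are the authors' own class and were not redrawn. The donor hearts were from Bm12 mice, which carry a mutated I-A class II molecule (I-A bm12), and were either wild type at *Il33* (IL-33+, hearts 1 to 3) or *Il33* knockout (IL-33-, hearts 4 to 6). All were transplanted into B6 recipients and taken at postoperative day (POD) 14, so every recipient kept its own *Il33* and a knockout graft lacked IL-33 in donor cells only. The hearts were perfused, digested with collagenase and DNAse, separated on a density gradient and cleaned of debris, marked with 1 hashtag each and sequenced as 1 pool. Donors and recipients were male by the study's text. The labels give no age and do not say whether a Tn cell came from the donor or from the recipient.

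Naive T cells are mature T cells that have not met their antigen. They recirculate through blood, lymph nodes and spleen, which they enter with CCR7 and leave along a gradient of sphingosine 1-phosphate through S1PR1. Transcription factors such as LEF1, TCF1, KLF2, FOXO1 and SATB1 keep them quiescent and responsive to IL-7, and in a nonlymphoid organ they are usually a small fraction of T cells.

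The 243 Tn cells made up 5.47% of all cells and 16.6% of the 1461 annotated T cells (Tn, Tcm, Tem/eff, Trm-like and Treg). They were shallow, with a median of 2764 unique molecular identifiers (UMIs, each 1 captured transcript) per cell, a range of 1566 to 4871 and a median of 1307 genes. Hearts 1 to 6 gave 19, 14, 78, 102, 15 and 15 Tn cells, so that heart 4 held 42.0% of them and heart 3 held 32.1%. The Tn UMIs of a heart ranged from 38508 to 275103, and levels in hearts 1, 2, 5 and 6 rest on the fewest. No barcode was shared between hearts. Levels are in CPM (counts scaled to the same total in every cell), as the mean over the Tn cells of a heart, averaged over hearts so that each heart weighs the same, with the SD over 6 hearts.

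The label was first set against 3 naive markers, *Lef1* and *Tcf7*, which encode the transcription factors LEF1 and TCF1, and *Ccr7*, the chemokine receptor for lymph node entry. At least 1 of the 3 had a UMI in 235 Tn cells (96.7%), at least 2 in 181 (74.5%) and all 3 in 85 (35.0%). In B cells, with a median depth of 2292 UMIs, 10 of 286 cells had at least 2 of them. In Tcm cells, which were deeper (4039 UMIs), the share was 35.7%, in Tem/eff cells (5694 UMIs) 35.8% and in Treg cells (2860 UMIs) 3.42%. These 3 genes belong to the profile by which such cells are annotated, so the values describe the class and test nothing.

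*Lef1* was the most restricted of the 3. Its level in hearts 1 to 6 was 418, 505, 647, 540.3, 502 and 485 CPM, a mean of 516 ± 75.7, and the next type, Tcm, had 138 ± 68.6 CPM with a highest heart of 230.2. Every heart's Tn level was therefore above every heart's Tcm level. *Tcf7* was at 226, 352, 680.0, 418, 385 and 719 CPM (464 ± 195). Its order was Tn, Tcm (289 ± 59.6), Trm-like (215 ± 117) and Tem/eff (203 ± 28.9), and the lowest Tn heart lay within the range of each of the other 3. *Ccr7* was not highest in Tn cells. It was at 606, 610.4, 566, 614, 433 and 944 CPM (629 ± 169), below cDCs (928 ± 671) and Tem/eff cells (894 ± 375), whose ranges overlapped it, and above B cells (426 ± 219).

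**Figure D1:**
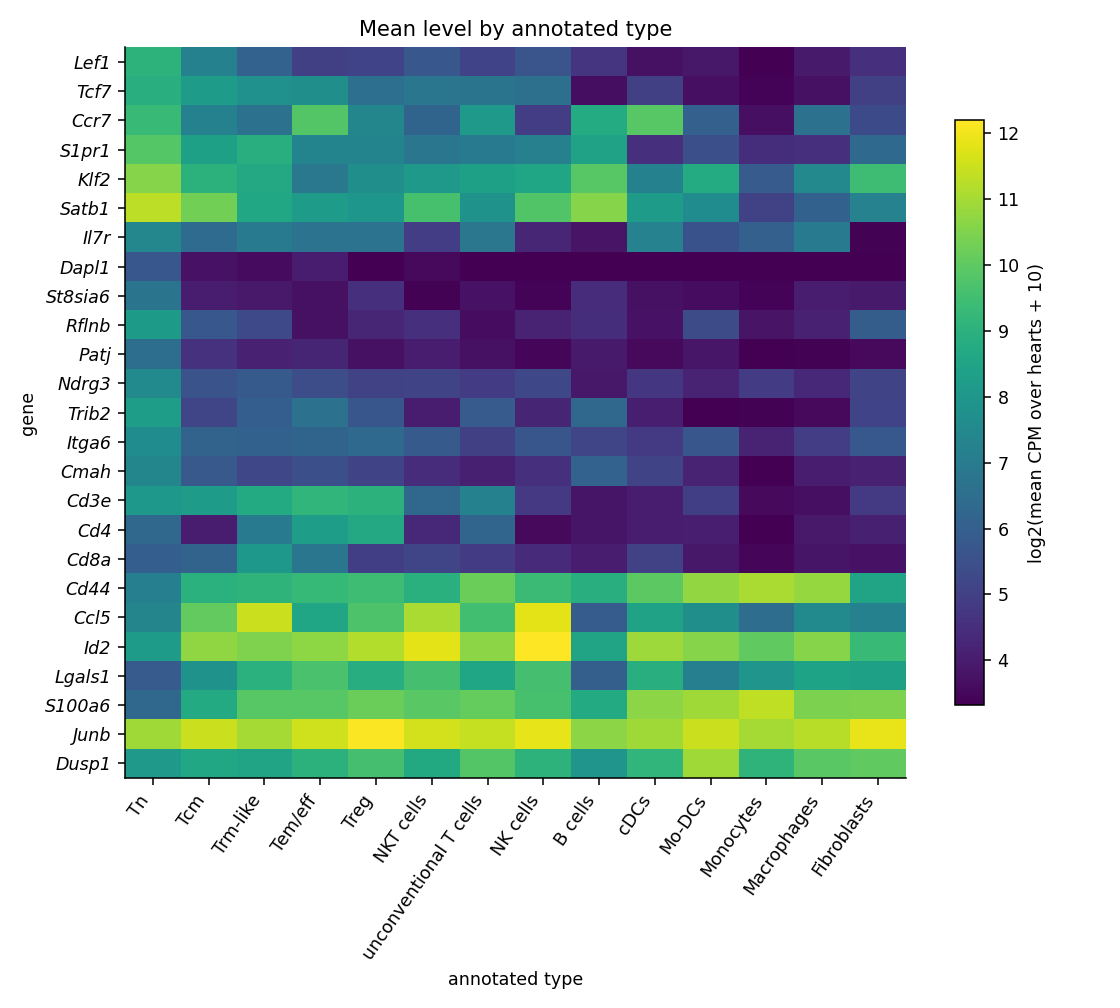
Heat map of log2(mean CPM over hearts + 10) for 25 genes (rows) in the 14 annotated types (columns), with the colour scale running from low (dark) to high (yellow). *Lef1*, *S1pr1*, *Klf2*, *Satb1* and *Rflnb* are brightest in the Tn column, whereas *Cd44*, *Id2*, *Lgals1* and *S100a6* are darkest or nearly darkest there.

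Windows of the *Lef1* and *Klf2* promoters are shown because these genes encode the marker that best separated Tn from the next type and the factor that controls *S1pr1*, whose level follows. They are RefSeq windows (GRCm38.p6) of 250 bases before to 50 bases after the transcript start, and among the naive genes looked for *Lef1*, *Tcf7*, *Klf2*, *Satb1* and *Il7r* had one, without *Ccr7* and *S1pr1*. Capitals mark, in *Lef1* (chr3:131110047-131110346, plus strand, the most upstream of 4 windows, before the gene's GENCODE M21 start at 131110471), the TCF/LEF core CTTTG searched on both strands, found 2 times here and in 53.9% of 32851 windows. In *Klf2* (chr8:72318812-72319111, plus strand, its 1 window) they mark CTA and TAG spaced by any 4 bases, the form of a MEF2 site, which reads the same on both strands, found 1 time here and in 3.69% of windows. A match in letters is no evidence of binding.
Lef1: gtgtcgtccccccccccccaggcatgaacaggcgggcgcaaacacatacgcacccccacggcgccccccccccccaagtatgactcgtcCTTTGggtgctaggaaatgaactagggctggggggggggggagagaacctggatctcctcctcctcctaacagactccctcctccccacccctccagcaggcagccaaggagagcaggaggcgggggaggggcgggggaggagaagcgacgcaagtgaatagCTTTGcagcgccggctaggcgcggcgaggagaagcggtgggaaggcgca
Klf2: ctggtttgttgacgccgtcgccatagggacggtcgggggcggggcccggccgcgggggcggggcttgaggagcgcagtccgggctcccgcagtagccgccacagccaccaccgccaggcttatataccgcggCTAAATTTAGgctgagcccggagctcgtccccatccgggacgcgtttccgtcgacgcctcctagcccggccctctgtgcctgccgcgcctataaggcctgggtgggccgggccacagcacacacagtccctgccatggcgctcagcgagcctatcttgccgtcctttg

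Among genes with at least 30 UMIs in Tn cells, 563 of 3610 (15.6%) had their highest mean level in Tn cells out of 14 types, and 1247 (34.5%) were among the 3 highest. Against this background the 3 lists of naive biology stood as follows: 4 of 16 homing and egress genes, 7 of 22 quiescence regulators and 4 of 9 naive surface and other markers were highest in Tn cells. In the other direction 4, 2 and 0 members were among the 3 lowest types in Tn cells, where 659 of 3610 genes overall stood. The summed level of each of these lists was highest in Tn cells, at 5437, 12664 and 4072 CPM. *Klf2* counts in both the homing and the quiescence sum. No test was made between types, since the types were drawn from the same expression values.

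The regulators and their target receptor were high in every heart. *Satb1*, a chromatin organiser of T cells, was at 2529 ± 196 CPM with a range of 2288 to 2771, against 1507 in B cells, the next type. *Klf2*, the factor that drives *S1pr1*, ranged from 1182 to 1928 CPM with a mean of 1512 ± 267, against 944 in B cells. *S1pr1*, the egress receptor, was at 879.8, 956, 1026, 1007, 716 and 910.0 CPM (916 ± 113), against 466 in Trm-like cells. For *Satb1* and *S1pr1* the lowest Tn heart lay above the highest heart of that next type (1823 and 617 CPM), while for *Klf2* the B cells of 1 heart reached 1397 CPM and the types overlapped. *Il7r*, the IL-7 receptor, was less particular, at 162 ± 85.8 CPM, highest by mean, but cDCs had 142 and the hearts ranged from 49.5 to 298. *Il7r* is a fixed marker that the naming rule would not have picked, so it was chosen with its value known.

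The 12 genes with the highest ratio of Tn to the next type added features that the 3 markers do not show. *St8sia6*, a sialyltransferase, was at 95.7 ± 36.9 CPM against 13.4 in Treg cells. *Rflnb*, the filamin-binding refilin B, was at 276 ± 121 CPM against 52.0 in fibroblasts, with 103 in heart 1 and 457 in heart 3. *Trib2*, a pseudokinase, was at 294 ± 130 CPM against 91.6 in Tem/eff cells, and *Ndrg3* at 179 ± 44.4 against 46.8 in Trm-like cells. *Itga6*, the integrin alpha 6 chain, was at 189 ± 64.0 CPM against 72.5 in Treg cells, and *Cmah*, which makes the sialic acid Neu5Gc, at 157 ± 79.8 against 59.9 in B cells. *Patj*, a polarity scaffold, was at 81.7 ± 34.2 CPM against 14.2 in Tcm cells. *Gm14085* led by ratio (44.3 ± 40.9 against 3.49 CPM) but rests on 30 UMIs with none in heart 1. *Lef1*, *1110032F04Rik*, *Thada* and *Fam241a* complete the 12. All 12 were highest in Tn cells with cells pooled over hearts, UMIs summed, cells with markers of another type removed, or each heart left out. They were picked from these same cells for this ratio, so this describes them and tests nothing. With cells pooled, 9 stayed among the 12 highest ratios, and with a heart left out 10 to 12 did. *Dapl1*, often used as a naive marker, had 21 UMIs (42.8 ± 42.6 CPM), too few for that ranking.

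Effector, memory and activation genes were mostly low. Of 16 effector and memory genes with at least 30 UMIs, 0 were highest in Tn cells and 11 were among the 3 lowest types, where 659 of 3610 genes overall stood. Their summed level was 3166 CPM, the lowest of 14 types, against 30236 in NK cells. *Id2*, a repressor that supports effector cells, was at 289 ± 41.3 CPM against 4669 in NK cells, and *Crip1* at 774 ± 177 against 5157 in cDCs. *Ahnak* was at 207 ± 71.6 CPM against 2622 in monocytes. The lowest of the other T cell types was nearer, at 1411 CPM for *Id2* (Trm-like), 1075 for *Crip1* and 672 for *Ahnak* (both Tcm). The cytokine receptor chain *Il2rb* of this list was at 486 CPM, below the other T cell types (lowest Tem/eff, 803) and above B cells (122). *Ly6c2* of this list was at 175 CPM, above Tem/eff (72.8) and Treg cells (19.9) and below Tcm (465) and Trm-like cells (264). *Cd44*, the adhesion receptor that rises on T cells after antigen, ranked last of 14 types at 133 ± 57.0 CPM against 2152 in monocytes. *S100a4* (19.3 ± 4.85 CPM), *S100a6* (67.7 ± 22.9) and *Lgals1* (49.1 ± 12.8) also ranked last, and these 4 genes were chosen with their values known. *Gzmk* and *Klrg1* had 0 of 681435 UMIs, which allows up to 3, and the division gene *Mki67* had 3. The list of T cell receptor response and immediate early genes gave the same order. Of 20 such genes 12 were among the 3 lowest types, and the list summed to 8494 CPM, the lowest of 14 types, against 26206 in fibroblasts. Its most abundant members were *Junb* at 1932 ± 278 CPM and *Jund* at 1066 ± 250, each at rank 12, and *Cd40lg* had 0 UMIs. Trm-like cells were close, with *Junb* at 2044 and *Jund* at 1108 CPM.

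**Figure D2:**
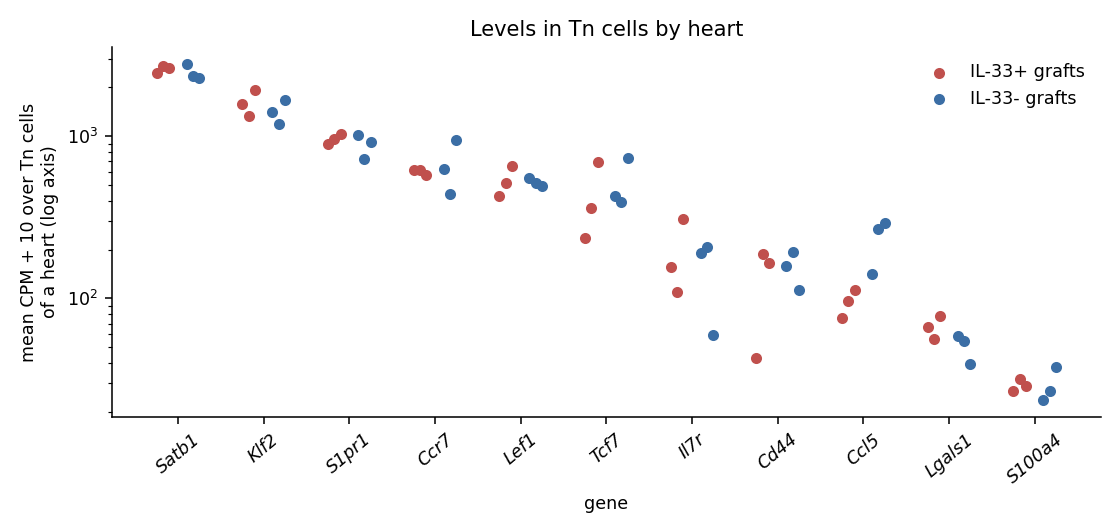
Mean CPM + 10 (log axis) over the Tn cells of each heart for 11 genes, 1 point a heart, red for IL-33+ and blue for IL-33- grafts. *Satb1*, *Klf2* and *S1pr1* vary little, and *Il7r* and *Cd44* spread widely. *Ccl5* is the only 1 of the 11 whose groups do not overlap.

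Genes of the antigen receptor were present at levels below those of Tem/eff cells. *Trbc2*, a receptor constant chain, was at 626 ± 129 CPM against 935, and *Cd3e*, a CD3 chain, at 254 ± 68.8 against 568. *Arhgef1*, an exchange factor of lymphocyte migration, was highest in Tn cells, at 385 ± 95.5 against 279.8 in B cells. In the survival list the kinase *Jak1*, shared by the IL-7 and other cytokine receptors, was at 830 ± 163 CPM, second to NK cells (903). Of 13 MHC class I presentation genes 7 were among the 3 lowest types, with *H2-D1* last at 1051 ± 62.0 CPM.

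Genes for ribosomal proteins were the broadest feature of Tn cells, a group chosen with its values known. Of 80 such genes 70 were highest in Tn cells, and together they took 22.6% of CPM (20.6% to 24.7% by heart), against 18.9% in Tcm cells and 6.56% in Mo-DCs, the lowest. Tn cells were among the shallower types, beside B cells (median 2292 UMIs), Mo-DCs (2310), Trm-like cells (2706) and NK cells (2712). The part of depth in this share was not tested.

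IL-33, its receptor and amphiregulin were nearly absent at the RNA level. *Il33* had 3 UMIs in Tn cells, *Il1rl1*, which encodes its receptor ST2, had 1, and *Areg*, which encodes amphiregulin, had 3. *Il1rl1* was at 456 CPM in Treg cells and *Areg* at 280.4. The wider list of IL-33 receptor and type 2 genes was not absent: 12 of its 14 members had UMIs, their sum was 406 CPM against 4106 in Treg cells, and the adaptor *Myd88* was at 46.2 CPM. *Foxp3*, the Treg factor, had 1 UMI in Tn cells and was chosen with its value known.

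Markers of other cells were low but present. The B cell list summed to 109.5 CPM in Tn cells against 7706 in B cells, the NK list to 79.4 against 3084, the macrophage list to 201 against 8708 and the neutrophil list to 24.1 against 17578 in Mo-DCs. The innate-like T cell markers, *Zbtb16*, *Il17a* and *Il23r* among them, were all at 0 UMIs. The dendritic cell list held 7 UMIs in all, from 4 of 6 members, with *Flt3* and *Xcr1* at 0, and the gamma delta list 15 UMIs. The regulatory T cell list summed to 295 CPM against 4530 in Treg cells, with 2 or more members in 27 Tn cells. Fibroblast collagen and matrix genes summed to 373 CPM, with 2 or more in 56 of 243 Tn cells and in 71 of 286 B cells. In all, 97 Tn cells (39.9%) had 2 or more markers of 1 other type. Haemoglobin and platelet genes ranged from 147 to 1200 CPM by heart, highest in heart 5.

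Tn cells with a coreceptor UMI were more often *Cd8* than *Cd4* when *Cd8a* and *Cd8b1* were pooled. The *Cd8* class thus pools both genes, while *Cd4* is a single gene. Gene by gene, *Cd8b1* had a UMI in 40 cells, *Cd4* in 37 and *Cd8a* in 29. A UMI of *Cd8a* or *Cd8b1* without *Cd4* was found in 58 cells, of *Cd4* alone in 36, of both in 1 and of neither in 148. The share with a *Cd8* UMI was 24.3% and with a *Cd4* UMI 15.2%, against 2.10% and 0.699% of B cells (median depth 2292 UMIs, Tn 2764). Among cells with either, the *Cd8* share was 62.1%, between that of Tcm (92.5%) and Trm-like cells (80.9%) above and Tem/eff (25.6%) and Treg cells (10.4%) below. With each cell thinned to 1566 UMIs it was 63.5%, which leaves the pooling of the *Cd8* genes in place. *Cd4* transcripts are scarce, so the 148 cells without a UMI cannot be assigned.

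The *Cd8* share did not separate the grafts. It was 66.7%, 50% and 65.8% in IL-33+ hearts (60.8 ± 9.38, SD, n = 3) and 52.9%, 72.7% and 100% in IL-33- hearts (75.2 ± 23.6, n = 3). The difference was -14.4 percentage points (two-sided exact permutation test, p = 0.4, where 0.1 is the smallest p that 3 against 3 hearts can give). Hearts 1, 2 and 6 had 6, 4 and 2 such cells.

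**Figure D3:**
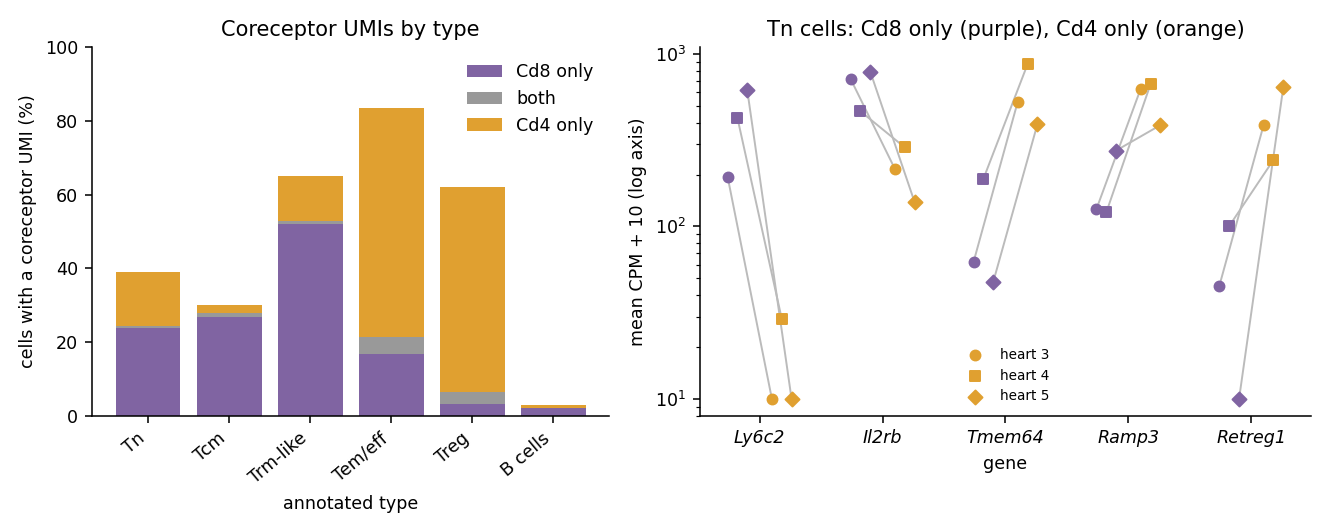
Left, percent of cells in 6 annotated types with UMIs of *Cd8a* or *Cd8b1* only (purple), of both coreceptors (grey) or of *Cd4* only (orange). Right, mean CPM + 10 (log axis) in Tn cells with only *Cd8* or only *Cd4* UMIs in hearts 3, 4 and 5, lines joining the classes of a heart. *Ly6c2* and *Il2rb* are higher in the *Cd8* class of all 3 hearts, and *Tmem64*, *Ramp3* and *Retreg1* in the *Cd4* class.

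The coreceptor classes were then compared within hearts 3, 4 and 5, which had at least 3 cells of each (25, 17 and 8 *Cd8* cells and 13, 16 and 3 *Cd4* cells). Using limma with the heart as a block, 29 of 3870 genes (0.749%) passed an adjusted p of 0.05 (Benjamini-Hochberg), 24 higher and 5 lower in the *Cd8* class, and 282 (7.29%) were at 0.05 or less before adjustment. The count rests on each of the 3 hearts, falling to 2 without heart 3, 5 without heart 4 and 6 without heart 5. The 3 *Cd4* cells of heart 5 hold 7806 UMIs in all, and 21 of the 24 higher genes had 0 UMIs there. *Ugcg*, 1 of these, was at 732, 744 and 888 CPM in the *Cd8* class and 598, 883 and 0 in the *Cd4* class, with a log2 difference of 2.18 that was 0.02 without heart 5. Without the block 1 gene was called, with at least 5 cells of each class 6, and with limma-voom on recovered UMIs 16. At least 5 cells of each class leaves hearts 3 and 4 only, the same fit as without heart 5. The block here is the heart itself, so the pairing is physical. The SE and p-values of this fit rest on the trend of spread over all genes, not on each gene's own spread.

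Of the 29 genes, 3 were also called by both limma-voom and the fit on at least 5 cells of each class (hearts 3 and 4). *Ly6c2*, a GPI-anchored surface protein, was at 184, 415 and 604 CPM in *Cd8* cells of hearts 3, 4 and 5 and at 0, 19.2 and 0 in *Cd4* cells. Its log2 difference was 4.69 (SE 1.18, limma adjusted p = 0.0283). *Tmem64*, a transmembrane protein, was at 52.1, 178 and 37.5 against 519, 864 and 382 CPM, a log2 difference of -2.78 (SE 0.54, limma adjusted p = 4.9e-04). *Ramp3*, a partner of calcitonin-family receptors, was at 116, 111 and 265 against 619, 659 and 377 CPM (log2 difference -1.76, SE 0.45, limma adjusted p = 0.0283). For each of the 3 the classes did not overlap. *Tmem64* alone stayed called without the block. *Ramp3* was also lost with a pseudocount of 50 (adjusted p = 0.0513) and with no low-count filter (0.834). None of the 3 was called without heart 3 (limma adjusted p from 0.12 to 0.758). Without heart 4, *Tmem64* (limma adjusted p = 0.223) and *Ramp3* (0.722) were not called either, and *Ly6c2* had no value. *Ly6c2* lies at chr15:75108158-75111970 and *Tmem64* at chr4:15265831-15286753 (GENCODE M21 on GRCm38).

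*Il2rb*, the shared beta chain of the IL-2 and IL-15 receptors, was at 707, 456 and 781 CPM in the *Cd8* class and 206, 278 and 129 in the *Cd4* class. It was called with heart 5 (log2 difference 1.65) but not without it (1.21, limma adjusted p = 0.314). *Retreg1*, a receptor for autophagy of the endoplasmic reticulum, was lower in *Cd8* cells at 35.3, 90.5 and 0 against 378, 233 and 632 CPM, and *Trib2* and *Hif1a* were lower too. *Plac8* was at 135, 235 and 614 CPM in *Cd8* cells with 0 UMIs in *Cd4* cells of all 3 hearts. *Runx3*, the transcription factor of the CD8 lineage, was not among the 29 but was called by both of the other fits (log2 differences 1.91 and 2.51), as was *Dusp10*, lower in *Cd8* cells (-1.42 and -1.75). Both were chosen with their values known.

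Tn cells were not distinguishably more or less frequent in IL-33+ than in IL-33- grafts. They were 2.19%, 6.09% and 4.68% of the cells of hearts 1 to 3 (4.32 ± 1.97) and 12.2%, 5.28% and 2.68% of hearts 4 to 6 (6.72 ± 4.92). The groups overlapped, heart 4 stood highest, and the difference of -2.40 percentage points gave p = 0.6 (two-sided exact permutation test, n = 3 and 3). Without heart 4 the sign turned, to 0.338. Of annotated T cells they were 8.52%, 13.9% and 18.5% against 29.8%, 9.15% and 7.14%, a difference of -1.73 points (exact p = 0.9) that turned to 5.49 without heart 4 and 0.823 without heart 1. Shares of recovered cells do not give numbers per heart, since every share also moves with the other types recovered.

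**Figure D4:**
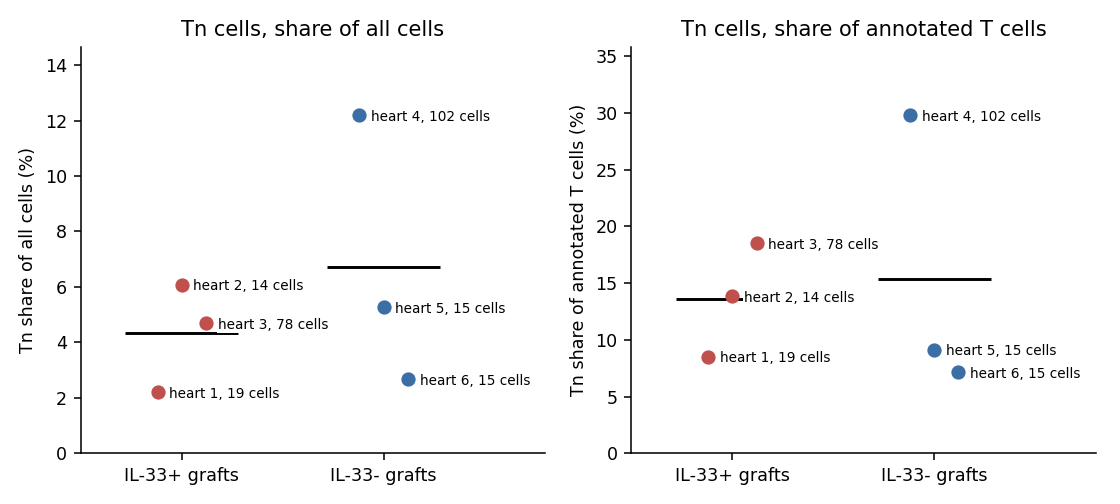
Tn cells as a percent of all cells (left) and of annotated T cells (right) in each heart, 1 point a heart with its number of Tn cells, and a bar at the group mean. Heart 4 is highest in both panels, and the other 5 hearts overlap between groups.

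Within Tn cells, the comparison of graft genotypes called no gene. Of 6544 genes tested with limma on log2(mean CPM + 10), 0 (0%) passed an adjusted p of 0.05. At an unadjusted p up to 0.05 there were 322 (4.92%), 161 in each direction, and limma-voom also called 0, with 279 at that threshold. In 643 genes (9.83%) the 3 hearts of a group did not overlap the other 3. The naive identity genes *Lef1*, *Ccr7*, *S1pr1*, *Klf2* and *Satb1* differed little. *Dapl1*, another naive marker, was higher in IL-33+ hearts before adjustment and is given with its list. The log2 difference of IL-33+ over IL-33- was 0.02 for *Lef1* (95% interval -0.46 to 0.50), -0.09 for *Ccr7* (-0.58 to 0.40), 0.13 for *S1pr1* (-0.27 to 0.53), 0.18 for *Klf2* (-0.18 to 0.54) and 0.07 for *Satb1* (-0.23 to 0.37). *Tcf7* was at -0.35 (-0.96 to 0.26). For the first 5 the intervals leave out a difference of 2-fold, also with any heart left out, and smaller differences are not resolved at this depth. For *Tcf7* the interval reached -1.48 without heart 3, and it passed 2-fold too without heart 2, 4 or 5. The median mitochondrial share of a Tn cell was 6.88% ± 0.0960 in IL-33+ and 7.05% ± 0.0692 in IL-33- hearts, without overlap (exact p = 0.1), and its part in the values was not tested.

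The 10 genes with the smallest unadjusted p had an adjusted p of 0.952 each. *Mafk*, a small Maf transcription factor, was at 19.0, 23.2 and 50.2 CPM in IL-33+ and 139.9, 191 and 121 in IL-33- hearts (log2 difference -2.03, SE 0.53). *Strap* was at 189.9, 204 and 131 against 114, 17.6 and 48.4. These genes and *Ifi27l2a*, given with its list, did not overlap between groups. In 6 others the groups overlapped: *Lfng* (-2.39), *Gxylt1* (-2.56), *Lbr* (-1.57) and *Adgre5* (-2.44) were lower in IL-33+ by log2 difference, and *Adk* (1.69) and *Nras* (1.64) higher. *Lfng*, *Gxylt1*, *Lbr* and *Adgre5* were lowest in hearts 1 and 2, while heart 3, the IL-33+ heart with the most Tn cells, lay among the IL-33- hearts. *Trib2* was at 366, 480.0 and 324 CPM in IL-33+ and 270.0, 101 and 221 in IL-33- hearts, also without overlap (log2 difference 1.04, SE 0.33, limma adjusted p = 0.952).

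**Figure D5:**
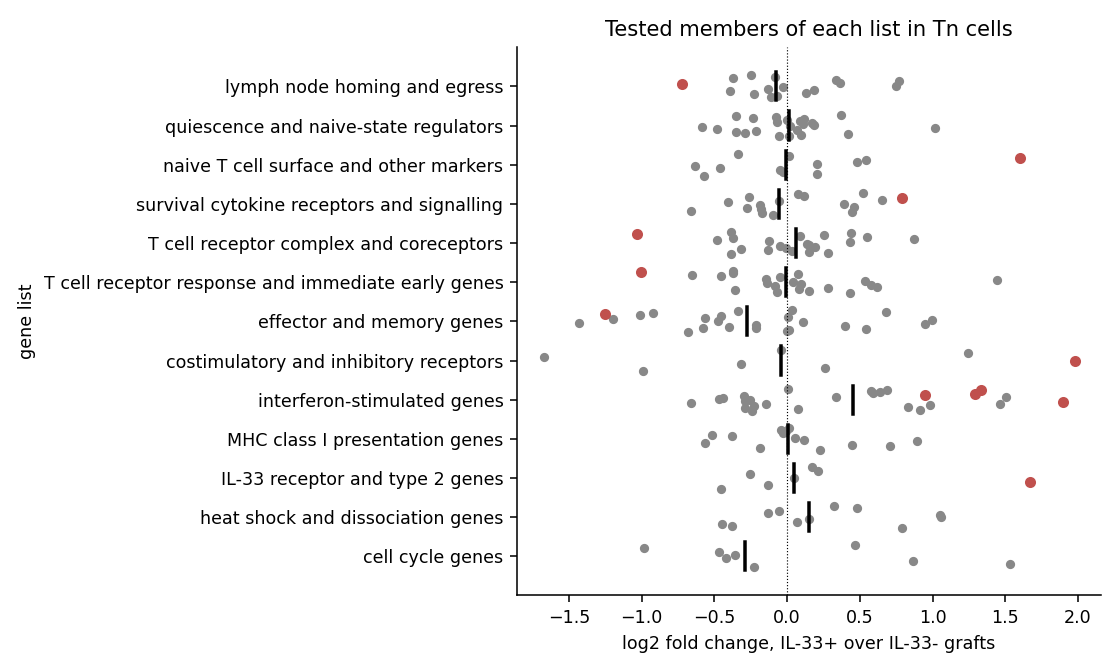
Log2 difference of IL-33+ over IL-33- (x axis) for each tested member of 13 gene lists (y axis) in Tn cells, black bars at list medians, red for an unadjusted p of 0.05 or less. Most medians lie near 0, the interferon-stimulated list lies at 0.46, and no gene passed adjustment.

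Interferon-stimulated genes stood furthest from 0 as a list, without any member being called. Of 26 tested, 16 were higher and 10 lower in IL-33+, with a median log2 difference of 0.46, beside -0.01 over all genes tested. With no filter on low counts the median of the list was 0.08. Before adjustment 4 (15.4%) passed 0.05, all higher, beside 2.46% of all genes in that direction and 4.92% in either. In 4 the hearts did not overlap, all higher in IL-33+ (*Ifi27l2a*, *Gbp2* and, chosen with their values known, *Oasl2* and *Slfn1*). Over all genes this held for 4.39% in that direction and 9.83% in either. *Ifi27l2a* was at 254, 492 and 171 CPM in IL-33+ and 96.4, 119 and 108 in IL-33- hearts (log2 difference 1.29, SE 0.37, limma adjusted p = 0.952). *Gbp2*, a guanylate-binding protein, was at 487, 187 and 126.3 against 125.6, 87.9 and 53.0 CPM (1.33, SE 0.43), so that heart 3 and heart 4 nearly touched. *Ifi47*, an interferon-inducible GTPase, was at 458, 279 and 124 against 169, 155 and 75.5 CPM, with overlap (0.95, SE 0.40). *Isg15* passed 0.05 before adjustment too (1.89) but rests on 13 UMIs, and it was chosen with its value known. Hearts 1 and 2, with 19 and 14 Tn cells, were highest for *Ifi27l2a*, *Gbp2* and *Ifi47*. *Irf1* and *Samhd1*, among the most abundant members, had log2 differences of -0.47 and -0.23.

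The other 12 lists had medians between -0.29 and 0.15. Quiescence regulators had a median of 0.01 and 0 of 23 at an unadjusted p of 0.05, and homing genes -0.08 with 1 of 16, the integrin *Itgal* (-0.73). T cell receptor response genes had a median of -0.01 with 1 of 22, *Dusp1*, which was at 26.3 CPM in heart 1 and between 289 and 338 in the others. T cell receptor genes had a median of 0.06 with 1 of 22, the costimulatory receptor *Cd27*, at 53.1, 172 and 144 against 177, 245 and 311 CPM. Survival genes had a median of -0.06 with 1 of 17, *Il2rg* (0.79), MHC class I genes 0.00 with 0 of 14, heat shock genes 0.15 with 0 of 11 and cell cycle genes -0.29 with 0 of 8. Effector and memory genes had a median of -0.28, with 10 higher and 14 lower of 24. Among them the chemokine *Ccl5* was at 65.4, 86.3 and 102 CPM in IL-33+ and 131, 256 and 283 in IL-33- hearts (log2 difference -1.25, SE 0.40, limma adjusted p = 0.952). Its groups did not overlap, and B cells had 15.2 to 80.5 CPM by heart. Naive surface markers had a median of -0.01 with 1 of 12, *Dapl1* (1.60), costimulatory and inhibitory receptors -0.04 with 1 of 7, *Slamf6* (1.98, from 32 UMIs), and IL-33 receptor and type 2 genes 0.05 with 1 of 7, the adaptor *Myd88* (1.67, from 30 UMIs).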

How the data were processed

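Single-cell RNA sequencing with hashtags was measured in 6 hearts, 3 per graft genotype. Per the labels, the authors used Cell Ranger on mm10 and Partek 10.0.23.0425, filtered cells on counts (at least 1500), genes and mitochondrial share, and deposited values as log2(CPM + 1), with the type and heart of every cell. Here the log2 was undone, and UMIs were recovered from the smallest step in each cell, with 99.9% of low values within 0.05 of a whole number. For 22 symbols the deposited values hold a mean over identifiers, and these were left out of tests. The 6 hearts held 908137 to 7012943 UMIs each. No cell was removed and no doublet caller was run. Every column of per-sample values was mapped.

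Mean CPM over the Tn cells of a heart was compared as log2(CPM + 10) with limma 3.58.1 in R 4.3.3 (lmFit, eBayes with trend), over genes with at least 10 UMIs and a UMI in at least 3 hearts. For single values the exact permutation test was two-sided, over the 20 divisions of 6 hearts. Types were compared as a description only. Whether hearts of a group came from separate experiments is not stated. Hearts were the replicates, and limma moderates each gene's spread between hearts by a trend over all genes. In the *Cd8* against *Cd4* fit the trend took over, so its SE and p-values do not measure a gene's own spread. The scripts were tested on simulated data. Other steps used pandas 2.3.3, numpy 2.4.6 and matplotlib 3.10.9 in Python 3.11.15. Gene positions are from GENCODE M21.

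The members and lists were chosen with earlier results of these data known. Named genes are the 3 markers, genes called (up to 10 a direction), the most abundant and lowest-p members of each list, the 10 smallest p between grafts, the 12 highest ratios to the next type, and *Cd4*, *Cd8a*, *Cd8b1*, *Il33*, *Il1rl1* and *Areg*. Alternatives changed the filter, the pseudocount, the averaging, the scaling, the test, the weights, the cells and the hearts. A few genes that this rule or these lists hold are not reported here.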

Additional observations from a re-analysis of the deposited data

How the results depend on the processing

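Few cells in 4 of the 6 hearts set the limits: a gene in hearts 1, 2, 5 or 6 often rests on 0 to 3 UMIs. No paired analysis was possible because the labels number the hearts 1 to 3 and 4 to 6 and tie no IL-33+ heart to an IL-33- heart. The graft comparison called 0 genes under 14 of 15 alternatives and 1, *Lfng* (-2.39, limma adjusted p = 0.0284), with no filter on low counts, which also brought the median of interferon-stimulated genes to 0.08 from 0.46 (0.22 to 0.64 otherwise). Of 23 graft differences, 8 of 345 values changed sign: *Lef1* without heart 3 (-0.14) and heart 6 (-0.02), *Ccr7* without *Cd8* cells (0.063) and heart 6 (0.20), *Tcf7* with limma-voom (0.14), array weights (0.16) and without heart 1 (0.0062), and *Dusp1* without heart 1 (0.046). With a heart left out these ranged from -0.14 to 0.17 for *Lef1*, -0.35 to 0.20 for *Ccr7*, -0.77 to 0.0062 for *Tcf7* and -1.58 to 0.046 for *Dusp1*. *Gbp2* fell to 0.67 with limma-voom, 0.69 with array weights and 0.80 without heart 1. Leaving out hearts moved the difference in Tn share from -4.42 to 0.338 points and in *Cd8* share from -25.5 to -2.02. The count between *Cd8* and *Cd4* cells was 29, and 1 with no heart block, 5 with a pseudocount of 50, 8 with no filter, 16 with limma-voom, 6 with at least 5 cells of each class and 2 to 6 with a heart left out (2 without heart 3, 5 without heart 4, 6 without heart 5), where fewer hearts also carry the test. For 10 of its genes 58 of 79 values lost their call and 0 changed sign. The setting of at least 5 cells is the same fit as without heart 5, so its values enter the 79 again. The count of genes highest in Tn cells was 563, and 537 to 633 under settings chosen after seeing the data (pooled cells, summed UMIs, no cells with markers of another type, each heart left out).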

Other observations

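The graft difference of the interferon genes and *Ccl5* in Tn cells was set beside that of the 4 other T cell types of the same hearts, for 4 genes chosen after their values in Tn cells were seen, so no test is given. *Ifi27l2a* was lower by mean in IL-33+ than in IL-33- hearts in each of the others, at 54.1 against 92.7 CPM in Tcm, 195 against 381 in Trm-like, 569.8 against 1095 in Tem/eff and 477 against 708 in Treg cells, while in Tn cells it was 305.4 against 108. *Gbp2* was likewise lower by mean in the 4 other types, with 69.0 against 103.9 CPM in Treg cells, and in Tn cells 267 against 88.8. The log2 level of *Ifi27l2a* in Tn cells less the mean of the 4 other types was 0.56, 1.39 and -0.89 in IL-33+ and -1.88, -1.82 and -1.66 in IL-33- hearts, a difference of 2.14. The same difference was 1.63 for *Gbp2*, 1.37 for *Ifi47* and -1.24 for *Ccl5*. B cells were not part of this difference. There *Gbp2* (33.3 against 13.3 CPM) and *Ifi47* (40.3 against 13.5) were higher by mean in IL-33+ hearts, as in Tn cells. *Ifi27l2a* was lower there (121 against 154). *Ccl5* was lower by mean in IL-33+ hearts in Treg cells too (683 against 974), and higher in Tcm, Trm-like and Tem/eff cells.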
